A study of Mus musculus with 2 samples.

Results

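The caveolae and T-tubule genes described here are 10 genes chosen by symbol: the caveolins Cav1, Cav2 and Cav3, the cavins Cavin1, Cavin2, Cavin3 and Cavin4, and the membrane-bending proteins Ehd2, Bin1 and Pacsin3. They were found among the 43346 Ensembl genes of the deposited tables by GENCODE M21 identifiers, and all 10 were present. RNA-seq of whole mouse heart at embryonic day 15.5 gave 1 group of 2 libraries. The mice were of strain B6NCrl and labelled healthy, with no treatment or genetic change named, and both sexes were mixed. Replicate 1 pooled the hearts of 78 embryos and replicate 2 those of 62 embryos, so the spread between the libraries is that of 2 pools and not of single animals. Estimated counts on Ensembl genes came to 41221405 in replicate 1 and 38457338 in replicate 2. All 12 cardiomyocyte markers were detected in each library at 1 TPM or more.

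Caveolae are small flask-shaped pits of the plasma membrane, abundant in muscle, endothelium and fat. Caveolins insert into the membrane as oligomers, and cavins coat the pit from the cytosol. Cav3 and Cavin4 are the forms known from striated muscle, whereas Cav1, Cav2 and Cavin1 are also made by endothelial, smooth muscle and connective tissue cells. Transverse tubules are deep inward folds of the cardiomyocyte surface that carry the action potential to the calcium release sites. In the mouse heart they mature mainly after birth, and both Cav3 and Bin1 take part in forming such folds in muscle.

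A pair of start codons in Cav1 sets its long and short protein forms, known as alpha and beta. The coding transcripts quantified here differ in which of these codons is annotated as their start. The coding stretch from the first start codon to the second (mm10, plus strand, chr6:17306450-17306479 joined to chr6:17307881-17307946) is shown in lower case with both start codons in capitals. The second start codon is codon 32 of the long form.
Cav1 coding start: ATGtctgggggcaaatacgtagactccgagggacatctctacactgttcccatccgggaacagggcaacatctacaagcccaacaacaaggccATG

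The long and the short Cav1 transcripts begin at separate sites, and the windows before those sites are shown with those of the muscle genes Cav3 and Cavin4. Each window runs from 250 bases before to 50 bases after an annotated start site (RefSeq, GRCm38.p6), all on the plus strand. Windows were given for 8 of the 10 genes. Capitals mark every match on either strand to the E-box CAGCTG, the MCAT motif CATTCC, the TATA motif TATAAA, the GATA motif GATAAG, the CArG box and the MEF2 site, and no matches overlapped in the windows shown.
Cav1 long form, chr6:17306085-17306384: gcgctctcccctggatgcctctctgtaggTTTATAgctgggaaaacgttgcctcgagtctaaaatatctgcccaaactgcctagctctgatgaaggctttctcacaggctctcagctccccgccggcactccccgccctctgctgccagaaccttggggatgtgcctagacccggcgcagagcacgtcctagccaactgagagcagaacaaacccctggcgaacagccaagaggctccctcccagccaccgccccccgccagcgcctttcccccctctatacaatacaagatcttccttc
Cav1 short form, chr6:17307390-17307689: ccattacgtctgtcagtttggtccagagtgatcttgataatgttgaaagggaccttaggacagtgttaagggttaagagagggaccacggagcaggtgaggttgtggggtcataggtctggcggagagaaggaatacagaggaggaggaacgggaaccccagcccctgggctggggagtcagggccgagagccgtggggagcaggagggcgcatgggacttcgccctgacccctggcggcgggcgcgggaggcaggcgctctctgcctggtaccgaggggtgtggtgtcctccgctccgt
Cav3, chr6:112459255-112459554: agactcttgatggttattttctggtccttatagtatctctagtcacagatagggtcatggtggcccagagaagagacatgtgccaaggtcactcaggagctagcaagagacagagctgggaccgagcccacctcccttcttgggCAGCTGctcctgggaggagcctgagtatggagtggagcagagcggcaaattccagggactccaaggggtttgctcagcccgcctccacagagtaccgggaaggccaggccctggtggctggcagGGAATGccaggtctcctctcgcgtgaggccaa
Cavin4, chr4:48663264-48663563: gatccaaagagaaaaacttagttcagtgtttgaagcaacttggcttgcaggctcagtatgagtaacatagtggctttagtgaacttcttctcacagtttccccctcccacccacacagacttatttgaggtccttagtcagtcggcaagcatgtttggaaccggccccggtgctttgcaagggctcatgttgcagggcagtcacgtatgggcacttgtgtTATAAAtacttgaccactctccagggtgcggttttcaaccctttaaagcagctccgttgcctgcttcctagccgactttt

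The Cav3 window held an E-box whose first base lies at -106 from the start site and an MCAT match, on the reverse strand, at 18. The Cavin4 window held a TATA motif at -30, and the Cav1 long-form window a reverse TATA match at -221. None of the letters searched were found in the Cav1 short-form window. Of 32817 promoter windows of the same length, 16.3% held the E-box, 14.7% the MCAT motif, 13.6% the TATA motif, 7.45% the GATA motif, 1.63% the CArG box and 3.19% the MEF2 site. Of the windows not shown, those of Cavin1, Ehd2 and Pacsin3 held E-box or MCAT matches and those of Cav2 and Cavin2 none of the motifs. These matches describe letters only.

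All 10 genes were expressed, from Cavin1 at 366 ± 18.1 TPM down to Cavin4 at 12.6 ± 2.47 TPM (mean ± SD, n = 2, as for all values given with ±). TPM divides reads by transcript length, scales the sum to 1000000 and so allows levels of different genes to be compared. All 10 of 10 genes reached 1 TPM in both libraries, where 58.2% of 21474 protein-coding genes did so. Cavin1, Cav1, Cavin2 and Cavin3 were the highest of the 10 in that order, Cav2 stood below Cav3 and Pacsin3, and the muscle cavin Cavin4 and the T-tubule gene Bin1 were the lowest. In these whole-tissue libraries, fewer cells of a type and less RNA per cell cannot be told apart.

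**Figure D1:**
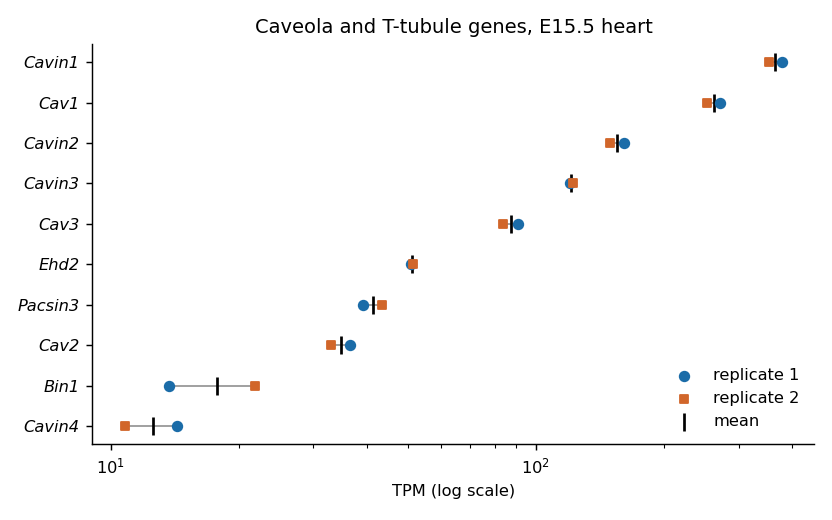
TPM of the 10 genes in each library on a log axis, with replicate 1 as circles, replicate 2 as squares and the mean as a vertical tick. The ranges of neighbouring genes overlap only for Bin1 and Cavin4, and Cavin1 leads with 379 and 353 TPM.

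Among the caveolins, Cav1, the main structural caveolin of endothelium and connective tissue, stood at 271 TPM in replicate 1 and 253 TPM in replicate 2. Cav3, the muscle caveolin, stood at 91.1 and 83.8 TPM, and Cav2, which depends on Cav1 to reach the cell surface, at 36.6 and 33.0 TPM. The ranges of these 3 genes did not overlap, and the order was the same in both libraries. Cav1 made up 68.2 ± 0.341% of the summed caveolin TPM, Cav3 22.8 ± 0.147% and Cav2 9.05 ± 0.194%. The log2 ratio of Cav3 to Cav1 was -1.58 ± 0.0165, so Cav1 exceeded its muscle paralog 2.99-fold. Cav3 in turn exceeded Cav2 by a log2 ratio of 1.33 ± 0.0214. Cav2 and Cav1 are neighbours on chromosome 6 of mm10 (17281185 to 17289115 and 17306335 to 17341452), with 17219 bases between them and the same direction of transcription. Cav1 was 7.52-fold above Cav2 (log2 ratio 2.91 ± 0.0378). Cav3 lies far from them on the same chromosome (112459505 to 112472872).

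The cavins were spread more widely than the caveolins. Cavin1, without which caveolae do not form, stood at 379 TPM in replicate 1 and 353 TPM in replicate 2 and took 55.9 ± 0.461% of the summed cavin TPM. Cavin2, a partner that shapes caveolae in endothelium, had 161 and 149 TPM, or 23.7 ± 0.267%. Cavin3, known as a binding partner of protein kinase C delta, had 120 and 123 TPM, or 18.5 ± 1.03%. Cavin4, the muscle member, had 14.3 and 10.8 TPM, or 1.91 ± 0.298%. No ranges overlapped among the cavins. Cavin1 exceeded Cavin4 29.1-fold (log2 ratio of Cavin4 to Cavin1 -4.86 ± 0.211), against 2.99-fold for Cav1 over Cav3. Cavin2 exceeded Cavin4 12.4-fold (log2 -3.63 ± 0.207) and Cavin3 exceeded it 9.67-fold (log2 -3.27 ± 0.303).

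Across the families, Cavin1 and Cav1, the coat and membrane proteins of the general caveola, kept nearly the same ratio in both libraries. Cavin1 over Cav1 was 0.48 on the log2 scale in each (mean 0.48 ± 0.0034), or 1.40-fold. The muscle partners were further apart, with Cavin4 over Cav3 at -2.66 in replicate 1 and -2.94 in replicate 2, so that Cav3 exceeded Cavin4 6.97-fold on average. Of the 19 pairs of genes compared, 18 had the same sign in both libraries and 16 had ranges of TPM that did not overlap. With 2 libraries an exact sign-flip test cannot go below p = 0.5, so ratios are set against the spread over libraries only. That spread holds no error in gene length or read assignment, which is shared by both libraries.

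**Figure D2:**
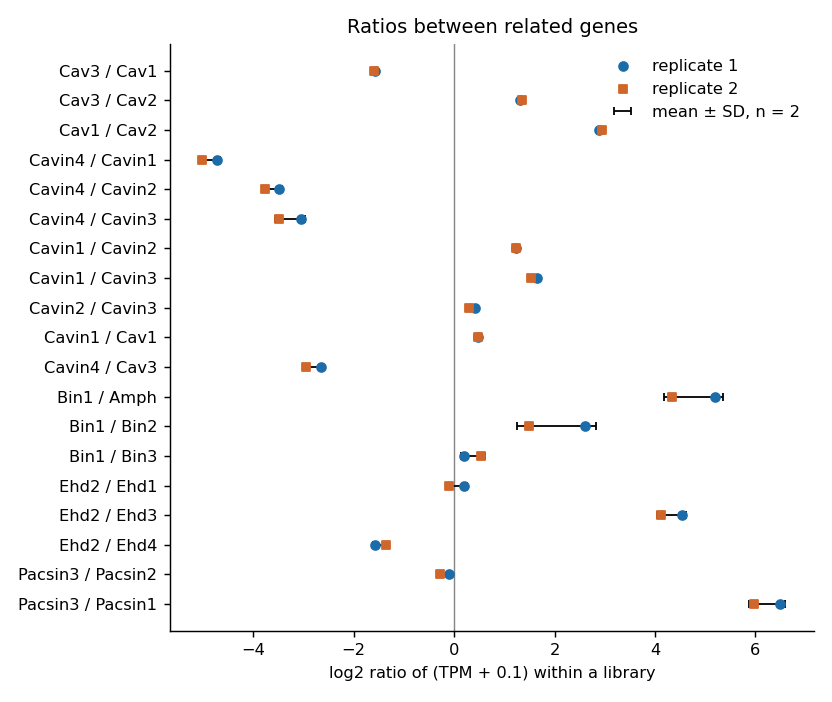
Log2 ratio of (TPM + 0.1) between related genes inside each library, with circles for replicate 1, squares for replicate 2 and bars for the mean ± SD (n = 2). Cavin4 lies furthest below its paralogs, at -4.86 against Cavin1, and Ehd2 over Ehd1 lies on either side of 0.

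Ehd2, an ATPase that holds the caveola at its neck, stood at 50.8 TPM in replicate 1 and 51.3 TPM in replicate 2. Its level was not distinct from that of Ehd1, a recycling paralog with 44.6 and 55.2 TPM (log2 ratio 0.19 in replicate 1 and -0.11 in replicate 2). Ehd4 was the highest of the family at 142 ± 13.9 TPM, 2.77-fold above Ehd2 (log2 ratio of Ehd2 to Ehd4 -1.47 ± 0.151, or -0.47 when only protein-coding transcripts were summed), and Ehd3 the lowest at 2.47 ± 0.537 TPM.

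Pacsin3, the muscle-enriched F-BAR protein that shapes caveolae, stood at 39.3 TPM in replicate 1 and 43.4 TPM in replicate 2. Pacsin2, the broadly expressed paralog, had 42.5 and 52.6 TPM. Their ranges overlapped, with a log2 ratio of Pacsin3 to Pacsin2 of -0.19 ± 0.117. Pacsin1, the neuronal form, was far lower at 0.465 ± 0.177 TPM (log2 ratio of Pacsin3 to Pacsin1 6.23 ± 0.359).

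Bin1, the BAR-domain protein that bends membrane into tubules in muscle, stood at 13.7 TPM in replicate 1 and 21.8 TPM in replicate 2. In TPM, Bin1 had the widest relative spread of the 10, a rank that depends on the scaling described below. Its range overlapped that of Cavin4, its neighbour in the order of levels, and that of Bin3, a broadly expressed relative at 11.9 and 15.0 TPM. Amph, the neuronal amphiphysin, was lower than Bin1 in both libraries (0.28 and 0.98 TPM), as was Bin2, the leukocyte form (2.18 and 7.71 TPM). The log2 ratio of Bin1 to Amph was 4.76 ± 0.595 and that of Bin1 to Bin2 was 2.05 ± 0.786. With a pseudocount of 1 TPM the former was 3.53.

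Nearly all of the Bin1 signal was placed on a single transcript. Bin1-202, which has 15 exons, held 98.8% of the TPM of the gene in replicate 1 and 98.0% in replicate 2, and Bin1-201, which has 19 exons, held 1.22% and 2.04%. In TPM, Bin1-202 stood at 13.6 and 21.4 and Bin1-201 at 0.17 and 0.45. Both transcripts were higher in replicate 2, and the share of Bin1-201 stayed small. Of these transcripts, only Bin1-201 holds the 4 internal exons that are 93, 108, 24 and 108 bases long and that lie on chromosome 18 of mm10 at 32414945 to 32415037, 32429196 to 32429303, 32429700 to 32429723 and 32430750 to 32430857. The 93-base exon falls within the stretch for the BAR domain, and the other exons lie in the linker before the C-terminal SH3 domain. Long Bin1 forms with these exons are known from brain.

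The Bin1 shares depend on which transcripts were counted. The authors' tables quantify 2 Bin1 transcripts, whereas GENCODE M21 lists 6. The 129-base exon at 32426224 to 32426352 and the 72-base exon at 32431671 to 32431742 are in both quantified transcripts, and M21 transcripts without the one or the other were not quantified. Alternative use of these 2 exons was therefore not measurable here. Neither transcript has an exon between 32421960 and 32424820, so no value was had for any exon spliced in there.

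Cav1 transcripts that begin coding at the first start codon held 83.9 ± 1.85% of the Cav1 TPM (85.2% in replicate 1 and 82.6% in replicate 2). Those that begin coding at codon 32 held 15.4 ± 2.28% (13.8% and 17.0%). The former summed to 230.5 and 209.1 TPM and the latter to 37.3 and 43.1 TPM, so transcripts with the first start codon were the larger class in each library. Some transcripts of either class are incomplete or code for a shorter product, such as Cav1-209 and Cav1-210. The leading ones were Cav1-201, which codes for the whole long form, with 80.7% and 77.2% and Cav1-202, a short-form transcript, with 13.3% and 15.3%.

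In shares of TPM, Ehd2 showed the largest shift between the libraries among the members with more than 1 quantified transcript. Ehd2-201, the full transcript of 5100 bases, held 80.3% of the Ehd2 TPM in replicate 1 and 94.6% in replicate 2. Ehd2-202, an incomplete annotation of 375 bases, held 19.7% and 5.43%. In TPM the full transcript stood at 40.8 and 48.5 and the short one at 10.0 and 2.79. The short transcript took 89.6 of 6719 estimated Ehd2 reads in replicate 1 and 22.3 of 7060 in replicate 2, so few reads set its TPM. The near equality of the gene-level Ehd2 TPM thus sums transcripts that differed in opposite directions. By share of estimated reads, Ehd2-201 held 98.7% in replicate 1 and 99.7% in replicate 2. That shift was smaller than the shift of Pacsin3-215 (31.3% and 25.3% of Pacsin3 reads).

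Pacsin3 was split most evenly. Pacsin3-201 held 49.6% and 54.7% of its TPM and Pacsin3-215 held 26.4% and 22.2%. Of their 11 exons each, 9 have the same start and end, 4 bases are only in Pacsin3-201 and 1 base only in Pacsin3-215, and both have 1272 coding bases. Cav2-201 held 92.8% and 96.5% of the Cav2 TPM, and Cavin1-201 held 99.95% and 100%. Cav3, Cavin2, Cavin3 and Cavin4 each had a single quantified transcript.

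**Figure D3:**
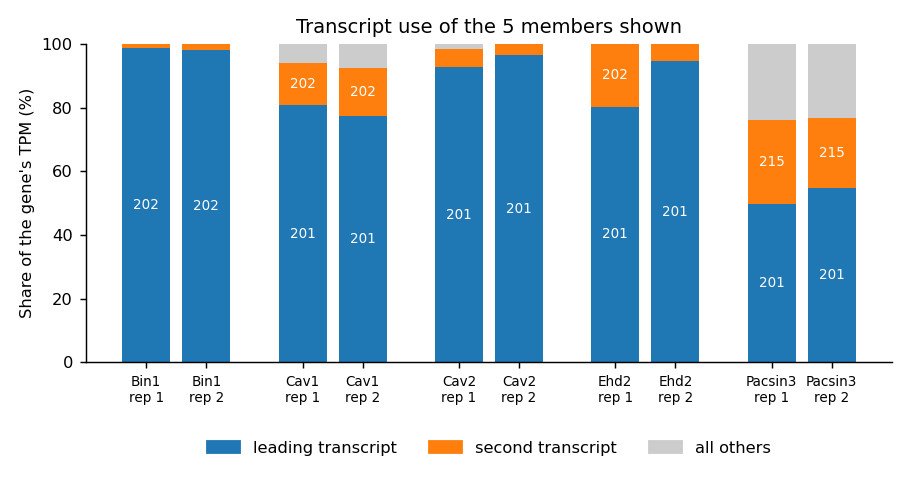
Share of each gene's TPM in its leading transcript, the one after it and all others, for the 5 members with more than 1 transcript in appreciable use, 1 bar per library, with transcript numbers inside the bars. Bin1-202 holds 98.8% and 98.0%, and the smaller Ehd2 transcript holds 19.7% in replicate 1 and 5.43% in replicate 2.

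Counts behind these levels ranged from 614 for Cavin4 in replicate 2 to 41688 for Cavin1 in replicate 1. All 20 library values of the 10 genes were whole numbers, as they are where no read is shared in fractions with another gene, and 71.4% of counts were whole over genes with at least 10 counts. No source used here says whether the counting took account of strand. Annotated genes on the opposite strand overlap Cav1, Cav2, Cavin2, Cavin3, Bin1 and Pacsin3. Those in the tables stood at 0.17 TPM or less, except Gm17281 beside Pacsin3 at 1.25 and 0.99 TPM.

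Most of these genes were within 1.5-fold between the pools. Counts were compared as replicate 2 over replicate 1 after scaling with edgeR's TMM factors, under which the median gene stood near 0.00. With a single pool on each side the difference has no replicate check, and the intervals given are 95% exact intervals for counting error only. Of the 10 genes, 1 lay beyond 1.5-fold, where 16.0% of 17054 genes with at least 10 counts in both did. That gene was Cavin4, lower in replicate 2 (log2 ratio -0.62, interval -0.77 to -0.47), where 4.40% of genes were beyond 1.5-fold lower. No member was beyond 1.5-fold in the other direction, where 11.6% of genes were. The median log2 ratio was -0.32 over the 10 genes and 0.00 over all genes tested.

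The ratio was -0.33 for Cav1 (-0.36 to -0.30), -0.33 for Cav2 (-0.40 to -0.25) and -0.34 for Cav3 (-0.41 to -0.26). It was -0.32 for Cavin1 (-0.34 to -0.30) and -0.32 for Cavin2 (-0.36 to -0.29). These 5 ratios thus fell between -0.34 and -0.32, and 64.7% to 66.9% of all genes differed less between the pools. Cavin3 stood at -0.19 (-0.26 to -0.12), Ehd2 at 0.02 (-0.03 to 0.07) and Pacsin3 at -0.02 (-0.11 to 0.07), and the intervals of the latter 2 include 0. Bin1 was the only member well above 0, at 0.45 (0.33 to 0.58), a 1.37-fold difference.

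Which member passes 1.5-fold depends on the scaling. As a ratio of deposited TPM, Bin1 was 1.59-fold higher in replicate 2, where 17.9% of genes were beyond 1.5-fold higher, and Cavin4 at a log2 ratio of -0.40 no longer passed. Scaled by total gene counts, Bin1 passed at 1.52-fold, with 15.4% of genes, and Cavin4 did not (-0.47). Scaled by spike-in counts, the 9 members other than Bin1 were beyond 1.5-fold lower in replicate 2, as were 76.7% of all genes, and Bin1 stood at -0.40. The signs of Cavin3, Pacsin3, Ehd2 and Bin1 depend on the scaling: Cavin3 stood at 0.03 and Pacsin3 at 0.14 in deposited TPM, and Ehd2 at -0.84 by spike-ins. The caveolins, Cavin1, Cavin2 and Cavin4 were lower in replicate 2 under every scaling run. These scalings shift the median gene by 0.16 (total counts) and -0.85 (spike-ins).

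Marker lists moved between the pools as well. Cardiomyocyte markers (12 of 12 at 1 TPM or more in both) summed to 41604 TPM in replicate 1 and 34549 TPM in replicate 2, with a median log2 ratio of -0.44 in TMM-scaled counts. Endothelial markers (12 of 12) summed to 601.8 and 698 TPM, with a median of 0.03. Fibroblast markers (9 of 9) summed to 2798 and 3416 TPM (median 0.09), and smooth muscle and pericyte markers (10 of 10) to 1582 and 1618 TPM (median 0.05). Brain and neuron markers (4 of 10, with Olig2 at 0) summed to 22.8 and 83.9 TPM (median 2.36). Their part in the members' ratios was not tested.

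Of the remaining lists, lung epithelium markers (8 of 9) summed to 157 and 357 TPM (median log2 ratio 1.19). Much of these sums was Sftpc (118 and 276 TPM). Of the 8 lung markers tested, 6 were beyond 1.5-fold higher in replicate 2. Hopx was beyond 1.5-fold lower (log2 ratio -0.80). Liver markers (5 of 9) summed to 51.6 and 225 TPM (median 2.67) and thymocyte markers (5 of 10) to 17.6 and 183 TPM (median 3.26). Macrophage markers (7 of 8) summed to 155 and 228 TPM (median 0.42) and epicardial markers (9 of 9) to 184 and 392 TPM. The median log2 ratio of the epicardial list was 0.17, and much of its summed difference was the keratin Krt18 (28.1 and 180 TPM). Skeletal muscle, where Cav3, Cavin4 and Bin1 are also expressed, was represented by markers that summed to 185 and 186 TPM (6 of 13). Acta1, an actin also found in heart, gave 152 and 147 TPM of these sums, and Pax7 was at 0. Of the 10 skeletal muscle markers tested, 4 (Atp2a1, Myh3, Myog and Ryr1, at 1.63 TPM or less) were beyond 1.5-fold higher in replicate 2. None was beyond 1.5-fold lower, and the median log2 ratio was 0.22. Over all genes tested, 11.6% were beyond 1.5-fold higher and 4.40% lower. Adipocyte markers, from another cell type rich in caveolae, summed to 4.66 and 6.35 TPM, with Plin1, Cidec, Lep and Cfd at 0 and 1 of 7 at 1 TPM or more.

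**Figure D4:**
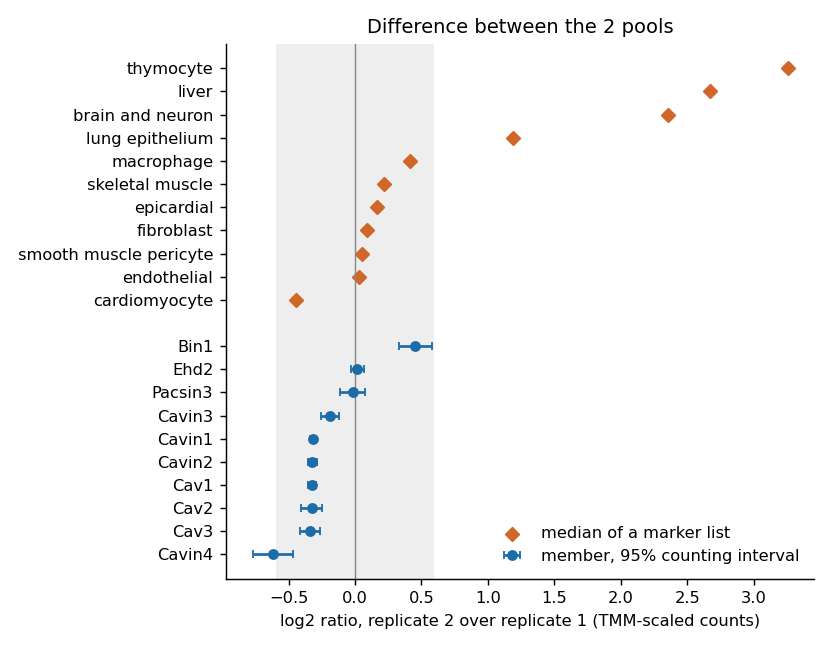
Log2 ratio of TMM-scaled counts, replicate 2 over replicate 1, for the 10 genes (circles with 95% counting intervals) and the median of each marker list (diamonds), with the grey band marking 1.5-fold. Cavin4 at -0.62 lies outside the band, the caveolins lie near -0.33 and Bin1 stands at 0.45, while thymocyte, liver and brain lists lie far to the right. The adipocyte list, with 1 gene tested, is not drawn.

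Genes that work beside the 10 were listed by role. Of 12 relatives that bend or scaffold membrane, 10 reached 1 TPM in each library and the list had a median of 30.5 TPM against 69.3 TPM over the 10 members. Amph and Pacsin1 were below that level. Amph and Bin2 were beyond 1.5-fold higher in replicate 2 (log2 ratios 1.60 and 1.63), and no gene of the list was beyond 1.5-fold lower. Of all genes tested, 11.6% were beyond 1.5-fold higher and 4.40% lower. Dnm2, the dynamin that cuts membrane necks, stood at 52.9 ± 6.29 TPM.

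Of 18 genes listed for the T-tubule and the junction between tubule and sarcoplasmic reticulum, 17 reached 1 TPM in each library. The list median was 41.5 TPM. Where the proteins of this list lie in the cell was not tested. The highest was Smpx, a small muscle protein, at 793 TPM in replicate 1 and 504 TPM in replicate 2. It was the only one of the list beyond 1.5-fold (log2 ratio -0.87), where 16.0% of all genes tested were. The lowest was Trim72, a membrane repair protein, at 0.62 and 1.01 TPM. Jph2, the cardiac junctophilin that ties tubule to reticulum, stood at 34.0 and 39.3 TPM, and its paralog Jph1 at 1.08 and 1.38 TPM. Jph2 was thus above Bin1 in both libraries, and Mtm1, a lipid phosphatase of tubule formation, was below it at 4.18 and 3.54 TPM. Tcap, a Z-disc protein linked to T-tubule stability, stood at 130.5 and 127 TPM.

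Of 15 receptors, enzymes and partners known from caveolae, 14 reached 1 TPM in each library and the median was 21.6 TPM. Gnas, a G protein alpha subunit, was highest at 1160 ± 12.5 TPM, and Nos1, neuronal nitric oxide synthase, lowest at 0.03 ± 0.0141 TPM. Nos3, the endothelial nitric oxide synthase held by Cav1, stood at 23.1 and 25.2 TPM. Cd36, a fatty acid transporter, was beyond 1.5-fold lower in replicate 2 (104 and 76.0 TPM, log2 ratio -0.67). Egfr was beyond it in the other direction (2.76 and 3.97 TPM, log2 ratio 0.77). Of the 14 genes of this list tested, 1 was thus higher and 1 lower, where 11.6% and 4.40% of all genes tested were.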

How the data were processed

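RNA above 200 nt (10 ng) entered each library, per the labels, which say total RNA and link a kit manual for oligo(dT) priming. The build (mm10), the GENCODE M4 annotation and quantification from a transcriptome alignment are stated in the deposited text beside the tables. The sources used here name neither aligner nor quantifier. The authors' deposited expected counts estimate how many reads came from a gene or transcript. The deposited TPM divide them by effective length and sum to 1000000 over all features, spike-ins included. The deposited percent is each transcript's share of its gene's TPM. The deposited FPKM was not used.

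Genes were matched to GENCODE M21 (same build) by identifier without version, and all 170 listed genes matched. The members, lists and pairs were chosen with earlier results of these data known. At an effective length of 1 kilobase, 0.0308 TPM equalled 1 read in replicate 1, and 0.0345 TPM did so in replicate 2. Pair ratios used a pseudocount of 0.1 TPM, which understates ratios of low genes. Counts were rounded, filtered at 10 in both libraries and scaled by TMM (edgeR 4.0.16, R 4.3.3). The ratio between libraries was tested on simulated counts with known fold changes. Those counts were given less spread between libraries than these data, and as many genes were raised as lowered. That test thus checked the calculation and not how well the scaling suits these data. DESeq2 1.42.0 size factors were an alternative. Intervals (scipy 1.17.1) are exact, from the binomial. They cover counting error only, as the reads carry no molecular identifiers.

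All members and pair genes were named, and in the 3 lists of related genes the highest and lowest, with transcripts from 10% of a member's TPM (5% for Bin1). Dnm2, Jph1, Jph2, Mtm1, Tcap, Nos3, Cd36, Egfr and most single markers were named after their values were seen. Nothing in the labels ties the libraries to batches.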

Additional observations from a re-analysis of the deposited data

How the results depend on the processing

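Without length normalization the log2 ratios of counts moved, since the genes differ in length: Cav3/Cav1 to -2.72, Cav3/Cav2 to 0.0722, Cavin4/Cavin1 to -5.66, Cavin4/Cavin2 to -4.23 and Cavin4/Cavin3 to -2.22, with every direction kept. With a pseudocount of 1 TPM, Cav3/Cav2 was 1.31. The number of members beyond 1.5-fold between the pools was 9 with spike-in scaling, under which 79.9% of all genes passed in either direction. It was 1 with DESeq2 size factors, with total gene counts and with no filter on low counts. Of all genes tested, 16.0%, 17.8% and 16.0% passed under these settings in either direction. By total counts the 1 member was Bin1 and not Cavin4. With TMM scaling, 0 members lay beyond 2-fold, a threshold at which all genes were not counted. The ratio of deposited TPM was added after the data were seen. Posterior mean TPM left 8 of 10 member levels, and rescaling TPM over Ensembl genes 7 of 10, within 1 SD of the value given. Summed over protein-coding transcripts only, 9 of 10 levels stayed within 1 SD. Pacsin3 moved from 41.4 to 37.6 TPM, closer to Cav2 at 34.8 TPM, and their ranges were not compared under this setting. Each library alone gave values within 1 SD of the mean for all 10 levels and all 19 ratios, which n = 2 makes certain. No paired analysis was possible because there is 1 group. Cavin4, with 909 reads in replicate 1 and 614 in replicate 2, and Bin1, with 902 and 1282, rest on the fewest reads of the members.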
